A study of Mus musculus with 7 samples.

Results

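The genes described here are the 4 receptors of the Notch pathway, Notch1 to Notch4, and 6 genes that modulate or transmit their signal, Lfng, Mfng, Rfng, Nrarp, Mib1 and Rbpj. They were taken by name from the authors' deposited table, which lists all 10 among its 21937 genes. The cells were mouse embryonic stem cells of the A2lox line on a 129/Ola background, in which doxycycline switches on a NeuroD1 transgene. They had been taken off inactivated fibroblast feeders by passaging on gelatin in serum and LIF. The uninduced group is 2 RNA libraries of these cells without the drug, and the induced group is 2 libraries after 48 h with doxycycline at 500 ng/ml. The comparison asked whether NeuroD1, a basic helix-loop-helix factor of developing neurons, starts a neuronal program in stem cells. Both groups carry the transgene, and no group received doxycycline without it, so what doxycycline does by itself and what NeuroD1 does cannot be told apart.

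In Notch signalling a ligand on one cell binds a receptor on its neighbour, the receptor is cut, and its intracellular part enters the nucleus and joins the DNA-binding protein Rbpj to switch on target genes such as the Hes and Hey repressors. Fringe enzymes (Lfng, Mfng, Rfng) add sugar to the receptors and change which ligands act on them, the ubiquitin ligase Mib1 makes ligands competent by driving their endocytosis, and Nrarp is a target of the pathway that dampens it. In the developing nervous system this signalling between neighbours keeps some cells as progenitors while others become neurons.

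Values are the authors' group means of normalized read counts, and every adjusted p comes from their DESeq comparison, with Benjamini-Hochberg adjustment across 18283 genes. A gene is said to have risen or fallen where that adjusted p was below 0.05. The table holds no spread between libraries, so each fold below carries an approximate 95% interval worked back from the authors' p. The labels do not say whether the 2 libraries of each group were separate cultures, and the p-values then measure only the spread between these libraries, which may be technical. The induced gene Neurod1 went from a mean of 438 to 4371. Its uninduced mean was not near 0, and lay above that of 52.6% of the genes whose higher group mean reached 10. These means do not tell transcripts of the transgene from those of the cells' own Neurod1 gene. Of 7 stem cell markers 6 fell, Pou5f1 among them from 12528 to 8404, and 7 of 7 neuronal markers rose. The smallest neuronal rise was that of Stmn2, with means of 3711 and 4996, and the largest that of Dcx, with 2.47 and 932. Both kinds of transcript were present in the induced cells, and in the uninduced cells too. In bulk RNA, fewer cells of a type and less RNA per cell cannot be told apart.

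Of the 10 genes 5 rose, 1 fell and 4 were not called. Nrarp and Mfng had the largest rises, Notch1, Mib1 and Lfng rose by smaller amounts, and Notch4 fell, whereas Notch2, Notch3, Rfng and Rbpj did not pass. Calls were common in this comparison. Among all genes with a p 35.5% were called, and among the 14691 genes whose higher group mean reached 10, which include all 10 members, 44.1% were called, 23.7% as higher and 20.4% as lower. The members' 6 of 10 is not far from this background. The change of 3 members reached 2-fold, against 14.4% of those 14691 genes. The median log2 change of the members, computed with a pseudocount of 1, was 0.26, beside 0.0013 over the same 14691 genes.

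**Figure D1:**
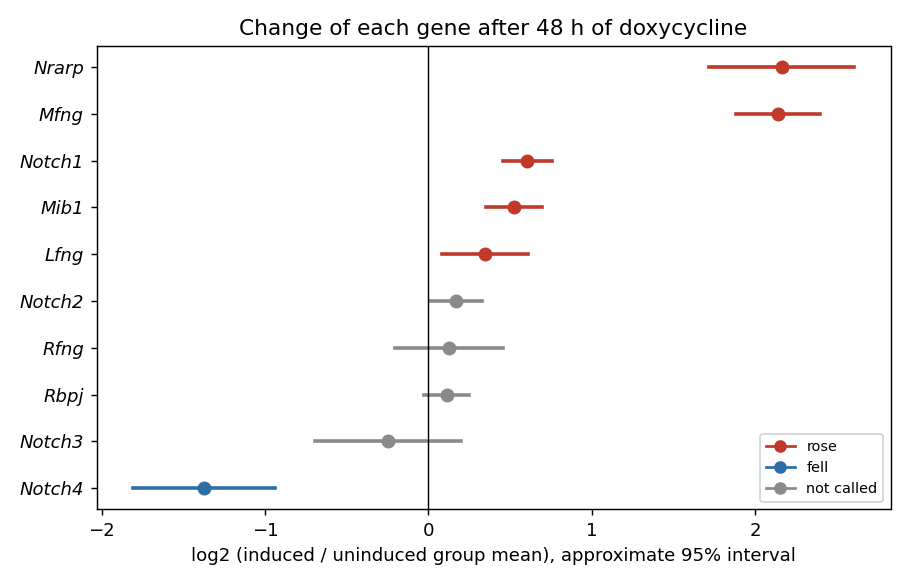
Log2 of the induced over the uninduced group mean for each of the 10 genes, in order of size, with approximate 95% intervals worked back from the authors' p. Nrarp and Mfng lie near 2.1, Notch4 lies at -1.38, and the intervals of Notch3, Rfng and Rbpj span 0.

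The stretches of DNA before 3 of the genes that changed are shown because they hold, or lack, the core letters of the Rbpj site and of the general E-box. Each is the 250 bases before the annotated start, 5′ to 3′ on the gene's strand, from RefSeq on GRCm38.p6. Capitals mark TGGGAA on either strand, the core letters of the Rbpj site, and CANNTG, the E-box to which basic helix-loop-helix factors bind as a class. A CANNTG match does not say which factor of that class could bind, and is not by itself a NeuroD1 site. The Nrarp window is chr2:25180508-25180757, that of Lfng chr5:140607091-140607340 and that of Notch4 chr17:34564045-34564294, all on the plus strand.
Nrarp: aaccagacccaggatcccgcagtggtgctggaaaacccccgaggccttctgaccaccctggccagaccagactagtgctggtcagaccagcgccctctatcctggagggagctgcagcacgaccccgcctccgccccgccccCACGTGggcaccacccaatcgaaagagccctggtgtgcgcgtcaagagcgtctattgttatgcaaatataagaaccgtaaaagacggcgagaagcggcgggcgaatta
Lfng: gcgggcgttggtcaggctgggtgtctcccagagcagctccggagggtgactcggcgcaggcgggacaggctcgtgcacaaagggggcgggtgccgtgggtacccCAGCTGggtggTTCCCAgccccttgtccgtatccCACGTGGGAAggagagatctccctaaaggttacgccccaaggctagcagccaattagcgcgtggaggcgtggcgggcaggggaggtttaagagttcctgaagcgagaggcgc
Notch4: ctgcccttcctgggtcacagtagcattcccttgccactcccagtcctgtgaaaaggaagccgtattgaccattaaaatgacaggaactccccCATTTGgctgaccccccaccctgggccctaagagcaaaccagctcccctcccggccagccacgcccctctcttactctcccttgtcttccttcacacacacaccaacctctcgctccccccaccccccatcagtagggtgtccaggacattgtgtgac

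The Lfng window held TGGGAA or its reverse complement at 2 places, starting 135 and 108 bases before the start, and CANNTG at 2 places, starting 146 and 112 bases before it. The later pair overlap, since the E-box letters CACGTG run into the TGGGAA. The Nrarp window held 1 CANNTG match, again CACGTG, and no TGGGAA. The Notch4 window held 1 CANNTG match, CATTTG. Windows were found for 8 of the 10 genes, with 2 for Rbpj. No window was found for Mfng or Mib1, which both rose. The window of Notch1, which also rose and is not printed above, held neither TGGGAA nor CANNTG. So the printed windows do not stand for all genes that changed. TGGGAA occurred before 2 of the 8 genes, Lfng and Rbpj. It is common, present in 21.6% of the 32817 windows of this length in the RefSeq table. CANNTG occurred before 5 of the 8 genes and in 66.2% of all windows. The narrower forms CAGCTG and CAGATG, both contained in CANNTG and searched on both strands, occurred before 1 and 0 of the 8 genes and in 13.0% and 14.5% of all windows. A match describes the letters only, and occupancy by Rbpj or NeuroD1 was not analysed here.

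The 4 receptor genes moved in different ways. Notch1, the receptor most studied in neural progenitors, had a mean of 2884 in uninduced and 4388 in induced cells. In the authors' deposited table this is a 1.52-fold rise (adjusted p = 8.3e-14, approximate interval 1.37 to 1.69). Of the 14691 genes above that minimum, 83.7% had a smaller log2 change, so the rise of Notch1 was larger than its error but not among the largest of this comparison.

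Notch4, a receptor known chiefly from blood vessel endothelium, had means of 188 and 72.6, the fall among the 10 genes. The authors' deposited table puts the induced mean at 0.385 times the uninduced one (adjusted p = 5.9e-09, approximate interval 0.285 to 0.521), and 3.38% of the 14691 genes had a smaller, that is more negative, log2 change. Endothelial markers were measured beside it. Of 10 fixed markers 2 fell, Pecam1 and Tek, 1 rose, Kdr, and 7 were not called. Their summed means were 2433 and 1490. None was at 0 in both groups, and the endothelial genes Emcn and Erg were low, with means of 6.40 and 6.28 for Emcn and 10.8 and 10.3 for Erg. Pecam1, a surface protein that mouse stem cells also make, went from 1262 to 296, a difference of -966. This is larger than the fall of the summed means, so the sum does not show a fall of the other markers together. The part of endothelial transcripts in the fall of Notch4 was not tested.

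Notch2, a receptor expressed in many tissues, had means of 2619 and 2939. The 1.12-fold difference in the authors' deposited table did not pass (adjusted p = 0.102). Its approximate interval, 1.004 to 1.25, comes from the unadjusted p and lies just above 1, so a small rise is not excluded. The upper end of that interval lies below the lower end for Notch1, but whether Notch1 and Notch2 differ in their change was not tested. Notch3, best known from the mural cells of vessels, had means of 6074 and 5108. Its ratio of 0.841 in the authors' deposited table did not pass either (adjusted p = 0.465). The error differs between this pair, with an approximate standard error of the log2 fold of 0.228 for Notch3 and 0.0815 for Notch2. The approximate interval of Notch3 runs from 0.617 to 1.15, so an unchanged level and a sizeable fall both lie inside it. Of 7 mural cell markers 1 rose, Pdgfrb, from 115 to 287, and 6 were not called, with summed means of 408 and 634 and none at 0 in both groups. Their part in the values of Notch3 was not tested.

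**Figure D2:**
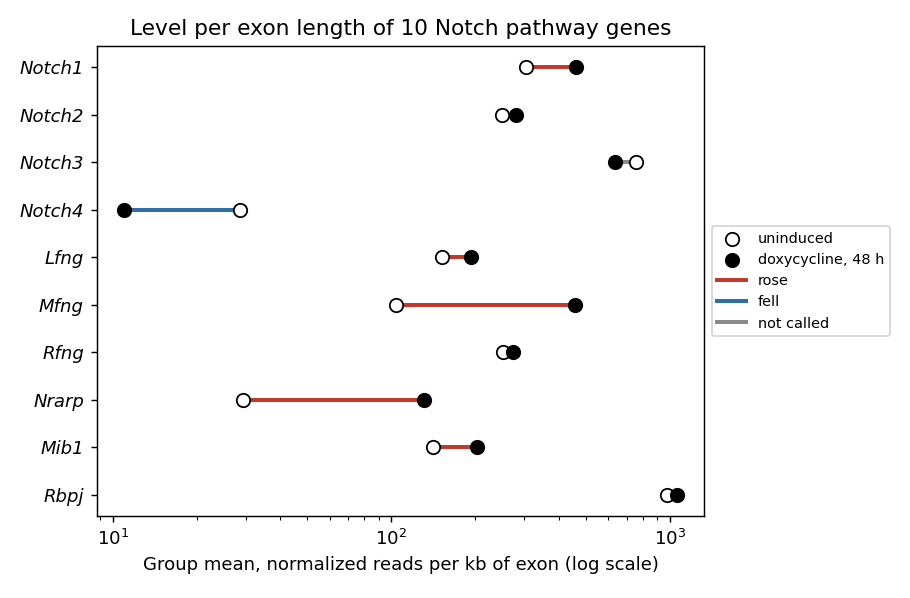
Group means divided by exon length, in normalized reads per kilobase on a log axis, for uninduced (open) and induced (filled) cells, with the line coloured by the authors' call. The longest lines are those of Mfng, Nrarp and Notch4, and Rbpj and Notch3 are the 2 highest genes before induction.

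Levels of the receptors were then set side by side per length of exon, on the GRCm38.p6 RefSeq annotation. Before induction the order was Notch3 with 754 normalized reads per kilobase, Notch1 with 304, Notch2 with 249 and Notch4 with 28.5. After induction it was the same, with 634, 462, 279.7 and 11.0. Notch3 and Notch1 thus came closer while Notch1 and Notch2 moved apart. As a share of the 4 receptors per kilobase, Notch1 had 22.8% before and 33.3% after induction, Notch3 56.4% and 45.7%, Notch2 18.7% and 20.2%, and Notch4 2.13% and 0.792%. The sum over the 4 receptors was nearly level, at 1336 and 1387 reads per kilobase, a ratio of 1.04. These shares rest in part on Notch3, whose own difference was not called, and no error could be put on them from group means.

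The 3 Fringe genes also differed among themselves. Mfng, manic fringe, had means of 191 and 839. This 4.40-fold rise in the authors' deposited table (adjusted p = 1.7e-57, approximate interval 3.68 to 5.25) was the member with the smallest p, and 96.1% of the 14691 genes had a smaller log2 change. Lfng, lunatic fringe, which acts in the segmentation clock of the embryo, had means of 348 and 443. Its 1.27-fold rise in the authors' deposited table passed at 0.05 (adjusted p = 0.0288, approximate interval 1.06 to 1.53) and would not at 0.01. Rfng, radical fringe, had means of 531 and 579.6, a ratio of 1.09 in the authors' deposited table that did not pass (adjusted p = 0.68, approximate interval 0.867 to 1.37). The intervals of Lfng and Rfng overlap, and whether these differ in their change was not tested.

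Per kilobase, Rfng was the highest of the Fringe genes before induction, with 251 reads per kilobase beside 152 for Lfng and 104 for Mfng. After induction Mfng was the highest, with 458 beside 274 for Rfng and 194 for Lfng. Mfng went from the lowest to the highest of the 3, from 20.5% to 49.5% of their sum, while the sum went from 507 to 925, a ratio of 1.82. The corresponding ratio for the receptors was 1.04, and the difference between these ratios was not tested.

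**Figure D3:**
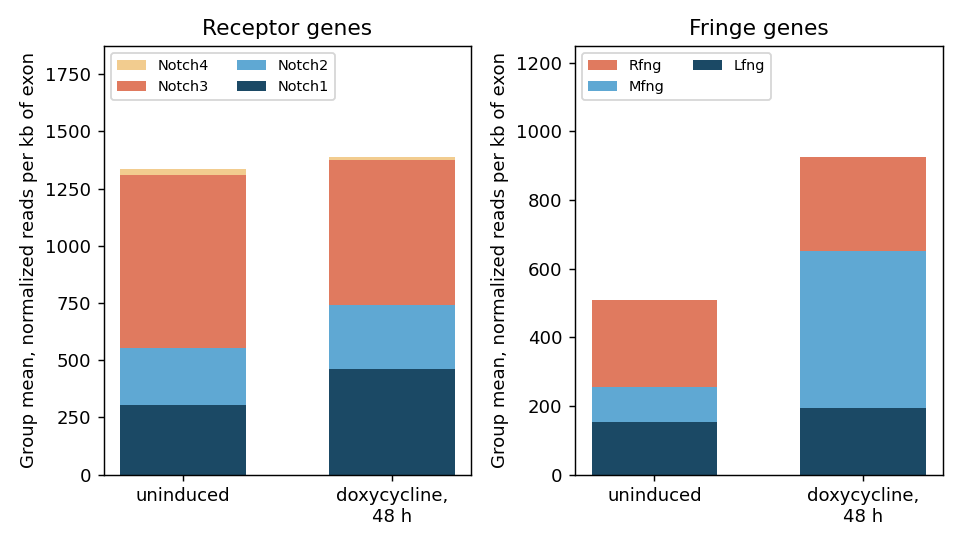
Stacked group means per kilobase of exon for the 4 receptor genes (left) and the 3 Fringe genes (right) in uninduced and induced cells. The receptor bars are nearly equal in height (1336 and 1387), with a larger Notch1 part after induction. The Fringe bar goes from 507 to 925, mostly through its Mfng part, which goes from 104 to 458.

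Nrarp, the feedback regulator, had the largest fold of the 10 genes. Its means were 75.6 and 338, a 4.47-fold rise in the authors' deposited table (adjusted p = 5.9e-20, approximate interval 3.28 to 6.09). Its interval overlaps that of Mfng, and whether these rises differ was not tested. Nrarp and Notch4 had similar levels per kilobase before induction, 29.3 and 28.5, and stood at 131 and 11.0 after it.

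Mib1, which acts in the cells that send the signal, had means of 1438 and 2067. The authors' deposited table gives a 1.44-fold rise (adjusted p = 1.3e-08, approximate interval 1.28 to 1.62), close to that of Notch1. Its paralog Mib2 had means of 442 and 376 and was not called there (adjusted p = 0.163). Rbpj, the nuclear effector, had the highest level per kilobase of the 10 genes, 981 before and 1059 after induction. Its means of 5842 and 6307 differ by a ratio of 1.08 in the authors' deposited table, which did not pass (adjusted p = 0.24, approximate interval 0.981 to 1.19). That is the narrowest interval of the 10 genes on the log2 scale, with an approximate standard error of 0.0705. Its upper end lies below the lower end for Mib1, but whether Rbpj and Mib1 differ in their change was not tested.

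Some counts could include reads of other loci. RefSeq on GRCm38.p6 annotates 3 Rbpj pseudogenes, and how the authors' counting treated reads shared with them is not given in the sources used here. Notch1, Notch2, Notch3 and Mib1 overlap other annotated genes, mostly non-coding, and use of strand in counting is likewise not given. Of these overlapping genes 1 is listed in the deposited table, Mir133a-1 within the Mib1 gene, with means of 1.54 and 0.521.

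**Figure D4:**
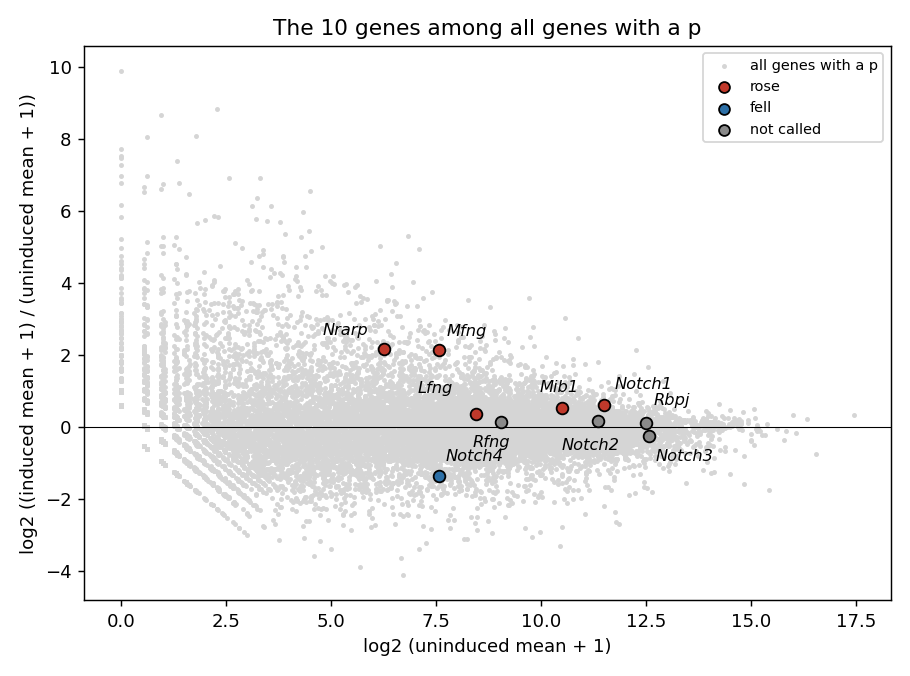
Log2 change with a pseudocount of 1 against the log2 uninduced mean for all 18283 genes with a p (grey), with the 10 genes marked by call. Nrarp and Mfng lie in the upper part of genes at their level, Notch4 lies in the lower part, and the other 7 lie within the dense band around 0.

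For the members that changed at least 2-fold, the genes with the most similar pair of group means were sought among all genes with a p, by Euclidean distance over log2(mean + 1) of the 2 groups. Nearest to Nrarp were the sodium channel gene Scn3a, with means of 75.1 and 336 (distance 0.0136), and Antxr2, with 75.3 and 347 (distance 0.0358). Limch1, with means of 189 and 835, was nearest to Mfng (distance 0.0174), followed by Megf10, with 177 and 929. The genes nearest to Notch4 were Fam167a, with 193 and 74.0, and Lingo3, with 196 and 74.6. These means are not divided by length, and with 2 values per gene such likeness says little more than that the means are close.

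The rest of the pathway was examined through 61 further genes listed by role. Among them 30 rose, 7 fell and 24 were not called, so that 60.7% of the 61 were called. No minimum mean was set for this list, and 59 of its genes had a higher group mean of at least 10. Of the 14691 genes whose higher group mean reached 10, 44.1% were called, 23.7% as higher and 20.4% as lower. The counts by role below were not tested against these shares. The median log2 change of the 61 genes was 0.26, the same to 2 decimals as that of the members. The ligands, which bind the receptors from the neighbouring cell, held 4 rises and 1 fall among 6. Dll4 went from a mean of 8.25 to 503 and Dll3, a ligand-like protein that acts within the cell, from 209 to 1632, while Jag2 had means of 1726 and 954, by the authors' deposited table. Of 6 targets 5 rose, with a median log2 change of 2.03. Heyl went from 4.00 to 281 and Hes5 from 9.40 to 225 there, and the ratio of Nrarp, a target too, lay above those of Hes1 (2.49) and Hey2 (3.07) and below that of Hey1 (5.73) in that table.

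Genes that cut the receptors were divided, with 4 rises and 3 falls among 10 and a median log2 change of -0.12. The sheddase gene Adam10, which makes the first ligand-dependent cut, rose 1.68-fold (adjusted p = 1.6e-17), and its relative Adam17 fell from 1771 to 1365 (adjusted p = 0.00013), by the authors' deposited table. Among genes of gamma-secretase, whose complex makes the cut inside the membrane, Ncstn, Psen2 and Aph1b rose, Aph1a fell, and Psenen and Aph1c were not called. The ratios of the called ones lay between 0.806 for Aph1a and 1.75 for Aph1b in the authors' deposited table, and Aph1b had the small mean of 50.2 before induction. Furin, which cuts the receptor during its maturation, was at 0.781 times its uninduced mean there (adjusted p = 0.0446). The glycosyltransferase gene Poglut1 fell from 1793 to 1549 (adjusted p = 0.0433 from the authors' deposited table), and Pofut1, whose O-fucose is what Fringe enzymes extend, did not pass (adjusted p = 0.138), with means of 1098 and 968.

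Several genes of Rbpj partners were called, whereas Rbpj itself was not, and this difference was not tested. Of 8 coactivator genes 5 rose and 0 fell by the authors' DESeq test, and at an unadjusted p below 0.05 the count of falls was also 0. The 3 Mastermind genes, whose proteins bind the complex of the receptor fragment with Rbpj, all rose, Maml3 from 168 to 707, Maml2 from 115 to 276 and Maml1 from 753 to 1059.9 in the authors' deposited table. Ep300, an acetyltransferase of that complex, had means of 5018 and 4858 and was not called there (adjusted p = 0.739). Among 14 corepressor genes 8 rose and 1 fell, and the median of their log2 changes was 0.30. Ctbp1 rose 1.56-fold and Kdm5a 1.47-fold, and Spen, a corepressor that binds Rbpj directly, fell from 5124 to 4105 (adjusted p = 9.8e-05), in the authors' deposited table.

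Genes of endocytosis and receptor turnover held 4 rises and 1 fall among 14. Dtx4, of the Deltex family of ubiquitin ligases, rose 2.46-fold and Numbl 1.81-fold in the authors' deposited table, and Dtx1 was at 0.789 times its uninduced mean (adjusted p = 0.0395). Numb, an inhibitor of Notch that is passed unequally to daughter cells, had means of 496 and 499 and was not called. The Rbpj paralog Rbpjl was near 0, with means of 1.93 and 0.477. Several of these genes have other functions, so a change in them is not one of the Notch pathway alone.

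**Figure D5:**
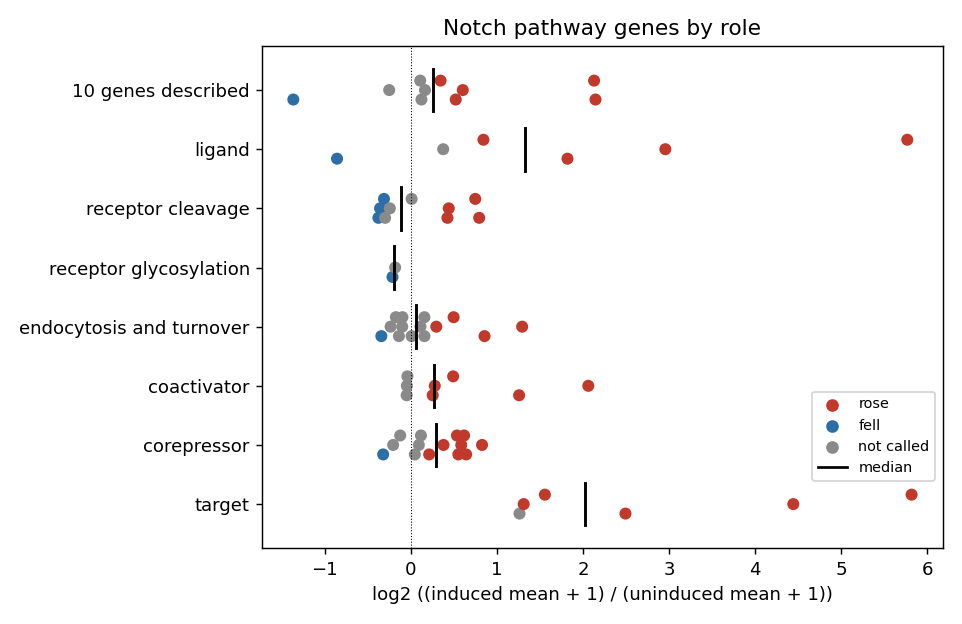
Log2 change with a pseudocount of 1 for the 10 genes and for 60 of the 61 further pathway genes by role, each point a gene coloured by call, with the median of each row as a black bar (the Rbpj paralog is left out). Ligands and targets reach the highest values, with medians of 1.33 and 2.03, and the other rows have medians between -0.20 and 0.30.

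Markers of remaining cell types that the cultures could hold were measured as well. Of 8 feeder fibroblast genes 2 rose, 2 fell and 4 were not called, with summed means of 2549 and 3100.4 and none at 0 in both groups. The sum hides opposite changes. Col3a1 went from 265 to 485 and Pdgfra from 33.9 to 96.0, while Thy1 went from 151 to 56.9 and Dcn from 59.2 to 10.9. Col1a1, with means of 970 and 1329, was not called. Of 5 neural progenitor genes 4 rose and 0 fell, with summed means of 4131 and 5441. One of the rises is Hes5, which is also counted among the targets above. Nes, with means of 3087 and 2775, did not pass. The part of these marker genes' cell types in the changes of the 10 genes was not tested.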

How the data were processed

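RNA was sequenced from 2 uninduced and 2 induced libraries, grouped by their titles. Per the submitters' processing notes, without role or order, the tools listed for RNA were TopHat2 (2.0.8), HTSeq (0.5.4p1), DESeq, SAMtools (0.1.19) and FastQC (2.6.14), with build mm9. The authors' deposited table gives each gene 1 mean per group, a signal of normalized read counts. It adds the authors' ratio of means as a fold change, its log2 value, and DESeq p-values with a Benjamini-Hochberg adjustment, which a recomputation matched in 100% of 18283 cases (relative tolerance 1e-06). Another deposited table has 4 per-library columns whose names match no sample label, and these were not used. The planned limma model on libraries was therefore not fitted, and the authors' adjusted p below 0.05 was the call. Depth per library is unknown here.

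The members and lists were chosen with earlier results of these data known. Log2 changes computed here used a pseudocount of 1 on each mean, so low genes appear to change less than they did. An approximate standard error was the authors' log2 fold change divided by the normal quantile of their unadjusted p, and the 95% interval follows from it. DESeq does not use a normal test, so these intervals are approximate. Levels per kilobase used the union of curated RefSeq exons of GRCm38.p6, another build and possibly another annotation than the authors'. Named genes were the 10 members, up to 4 genes per role of the pathway list with the smallest adjusted p and any that went against their role, the 2 nearest genes of members changed at least 2-fold, the induced gene and listed markers, and a few more pathway genes were picked for the text with their values in view. The values of 1 gene of the pathway list are not reported here. Older symbols were matched through RefSeq synonyms. Alternatives were a threshold of 0.01, a 2-fold minimum, adjustment over genes reaching a mean of 10 or 50, pseudocounts of 0.5 and 5, equal totals and centring on the median. The software was Python (3.11.15), numpy (2.4.6), pandas (2.3.3), matplotlib (3.10.9) and scipy (1.17.1).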

Additional observations from a re-analysis of the deposited data

How the results depend on the processing

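The count of called members fell from 6 to 3 with a 2-fold minimum, and that of members that rose from 5 to 2. Nrarp, Mfng and Notch4 passed it. Of the 61 other pathway genes 11 passed the 2-fold minimum, of which 11 rose and 0 fell, by the authors' DESeq p and ratio of means. Over the 14691 genes whose higher group mean reached 10, 14.4% passed it. At an unadjusted p below 0.05, with no minimum fold, 8 of the 61 pathway genes fell. With a threshold of 0.01, 4 of the 7 pathway genes that fell still passed. Over all genes the 2-fold minimum left 2134 calls, 1367 higher and 767 lower. Lfng was the member lost at 0.01. Adjustment over genes with a mean of at least 10 or 50 changed no member's call, and the adjusted p of Notch2 was 0.0828 and 0.0762 under them. Other pseudocounts, equal totals and centring on the median moved the log2 change of the 10 members by at most 0.0565, each of the 40 values within the approximate standard error.

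No paired analysis was possible because the group means used carry no replicate numbers. For the same reason fits without single libraries, quantile normalization, the minimum mean and other pseudocounts of the library-level test were not run, so how far 1 library sets a group mean is not shown here. Depth per library is unknown, and no limit for low genes was computed from it.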
